A study of Mus musculus with 12 samples.

Results

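The enzymes described here degrade amino acids in the liver. They are 43 genes, taken as the rows of the deposited expression table whose gene name is on a fixed list, out of 25676 genes in that table. The list was set by function and holds 5 genes of phenylalanine and tyrosine breakdown, 6 of tryptophan, 4 of histidine, 5 of serine, threonine, alanine and aspartate, 4 of ornithine and proline, 6 of glycine and glyoxylate, 6 of methionine and transsulfuration, 2 of cysteine and taurine, 3 of the branched-chain amino acids and 2 of lysine. All 43 names were found, and 42 entered the tests. *Dao*, which encodes D-amino acid oxidase, was listed at 0 in all 12 libraries.

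The liver takes up amino acids from portal blood and breaks down those that are not used for protein synthesis. The amino group is removed at the first step or a later one and goes mostly to urea. The carbon skeletons go to glucose, ketone bodies or the citric acid cycle. Genes such as *Tat* and *Tdo2* are made mainly in hepatocytes, and hormones and protein intake set the levels of many.

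RNA was sequenced from whole livers of 12 C57BL/6 mice aged 3 to 4 months, in 4 groups of 3. The knockout mice (KO, 3 males and 3 females) lacked *Yap1* through a Cre recombinase under the *Foxa3* promoter, which is active in the embryonic endoderm that gives rise to hepatocytes and bile duct cells. The controls (WT, 3 males and 3 females) are called wild type, and the labels do not give their Cre or *Yap1* alleles. *Yap1*, the transcriptional co-activator of the Hippo pathway, lay between 23.0 and 34.9 TPM (a level scaled by transcript length and to a fixed sum per library) in WT and between 0.994 and 3.11 TPM in KO, so every library matched its genotype label. Livers hold several cell types, and in bulk RNA fewer hepatocytes and less of an RNA in each hepatocyte cannot be told apart.

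Each library held 14321 to 15482 genes above 0 TPM. The fewest were in WT male 2, whose library number in the column headers lies apart from those of the other libraries. What that number stands for is not given in the sources used here. The read depth was not given in the sources used here. Steps in the low values put it at roughly 24800000 to 35200000 reads, and because only 47.8 to 56.0% of the low values came out as whole reads (within 0.02 read, up to 20 reads) this is an approximation. The member with the fewest reads behind its lowest value was *Sdsl*, with about 164. WT female 3 stood apart in the summed level of the enzymes: they made up 2.58% of its TPM, against 1.85 to 2.07% in the other 5 WT libraries and 1.80 to 2.17% in the 6 KO libraries.

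TPM are shares of a fixed sum. The genotype effect (KO minus WT, log2(TPM + 1), with sex as a covariate) had a median of 0.35 over the 12278 genes tested on the TPM as deposited. After each library was divided by a median-of-ratios factor (0.724 to 0.949 in WT, 1.08 to 1.34 in KO) that median was -0.04. Calls of the genotype effect are therefore given on both scales, called deposited and rescaled, and levels in TPM are as deposited unless called rescaled. A gene is said to rise or fall where limma's adjusted p was below 0.05, and a call on the deposited scale alone is a change in share of the library's RNA. The rescaling takes the typical gene as unchanged, which brings the median near 0 by design, and its factors did not overlap between the genotypes. A call on the rescaled scale alone rests on that assumption, which was not tested.

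On the deposited scale 10 of the 42 tested enzymes (23.8%) were higher in KO, where 50.1% of all tested genes were, and 13 (31.0%) were lower, where 4.82% of all tested genes were. On the rescaled values 2 enzymes (4.76%) were higher against 20.9% of all genes, and 24 (57.1%) were lower against 18.7%. The median effect over the 42 was -0.07 deposited and -0.53 rescaled. On both scales 2 enzymes rose, *Acmsd* and *Csad* (20.9% of all genes rose on both), and 13 fell, *Hpd*, *Gstz1*, *Tdo2*, *Afmid*, *Kmo*, *Haao*, *Hal*, *Ftcd*, *Prodh*, *Prodh2*, *Ahcy*, *Dbt* and *Gcdh* (4.81% of all genes fell on both). These 15 kept their calls on both scales when any 1 of the 12 libraries was left out. The 2 scales are not independent tests, because rescaling shifted the effects of all 42 enzymes by -0.47 to -0.44. The 13 falls are thus those called on the deposited scale, and the 2 rises are those called on the rescaled scale. No enzyme was called in opposite directions on the 2 scales, and 8 were called on neither (*Tat*, *Hgd*, *Amdhd1*, *Sds*, *Gldc*, *Amt*, *Mat1a* and *Aass*).

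**Figure D1:**
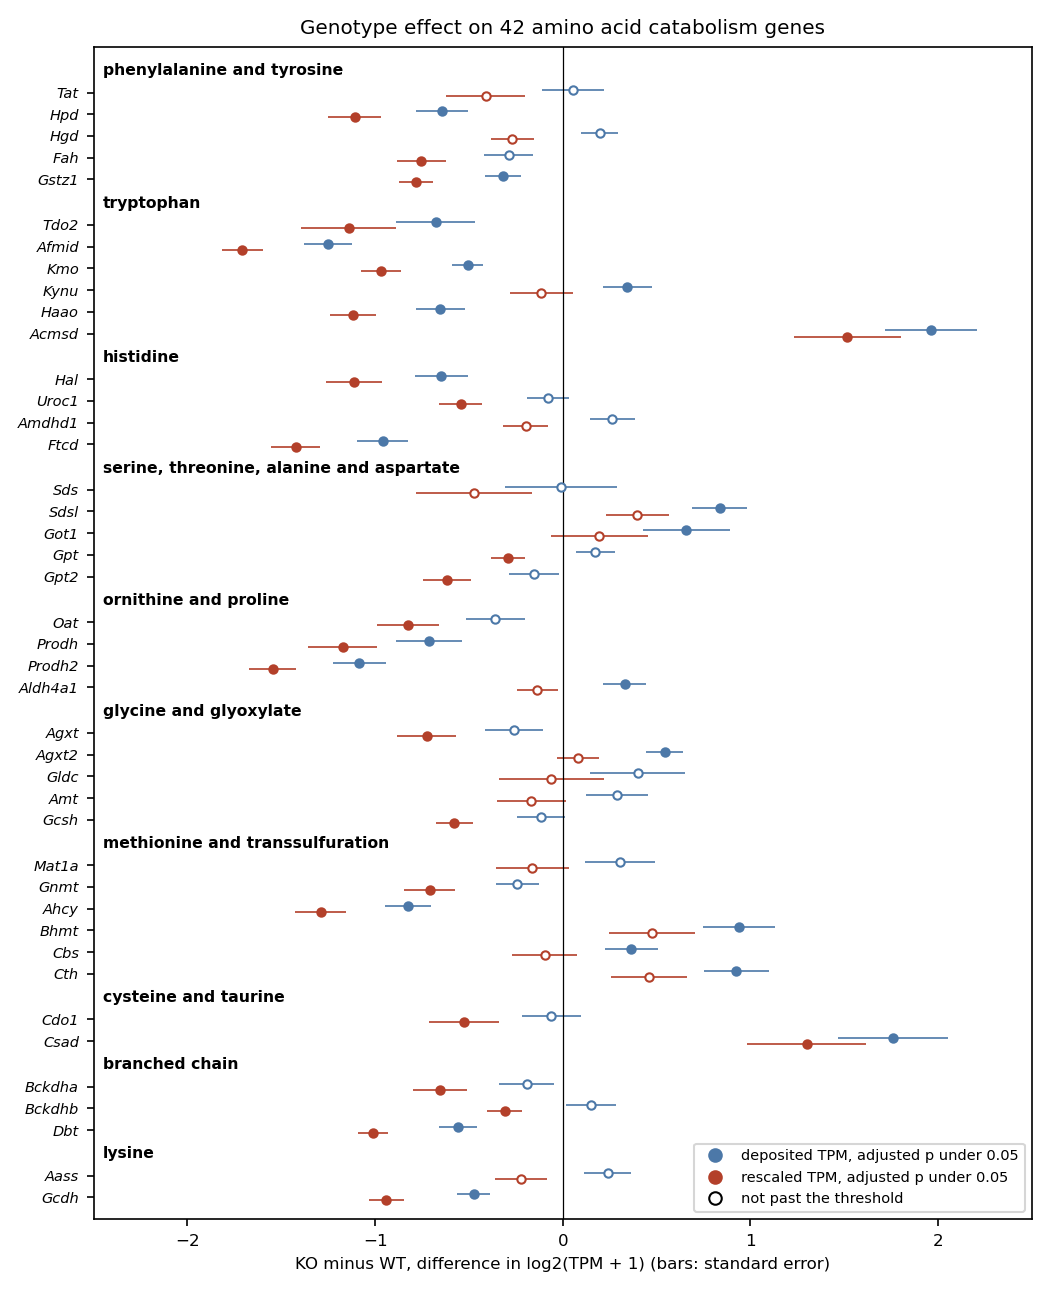
Genotype effect on each of the 42 tested enzymes, grouped by amino acid. The horizontal axis is KO minus WT in log2(TPM + 1), points are limma estimates on deposited (blue) and rescaled (red) values, bars are standard errors, and filled points have an adjusted p below 0.05. Effects on the deposited scale run from -1.25 for *Afmid* to 1.96 for *Acmsd*.

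All 6 KO values lay below all 6 WT values for 7 enzymes on the deposited scale (*Afmid*, *Kmo*, *Ftcd*, *Prodh2*, *Ahcy*, *Dbt* and *Gcdh*; 1.88% of all tested genes) and for 18 on the rescaled scale (8.19%). All 6 lay above all WT values for 6 enzymes on the deposited scale (*Acmsd*, *Sdsl*, *Agxt2*, *Bhmt*, *Cth* and *Csad*; 28.7%) and for 0 on the rescaled scale (10.8%). The order of mean levels changed with genotype. *Gnmt* was the most abundant enzyme in WT at 2498 ± 514 TPM (SD, n = 6) and *Bhmt* in KO at 3283 ± 196 TPM (SD, n = 6), with *Gnmt* next at 2087 ± 225. The least abundant above 0 was *Sdsl* in both genotypes, at 11.2 ± 2.09 TPM in WT and 20.8 ± 4.12 in KO (SD, n = 6).

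Stretches upstream of *Ftcd* and *Prodh2*, from the RefSeq table of promoters (GRCm38.p6, 250 bases before to 50 after a start), are shown because these genes had large falls and hold the letters of the HNF1 motif. They were chosen for those letters, and *Haao*, which also fell and holds them, is not shown because its stretch lies within an alternative first exon in GENCODE. The stretches are chr10:76575498-76575647 for *Ftcd* and chr7:30493508-30493621 for *Prodh2*, both on the plus strand, ending before the first annotated base of each gene. Capitals mark the core letters of the HNF1 motif, GTTAAT or its reverse complement, HNF1 factors being homeodomain proteins of hepatocytes.
Ftcd: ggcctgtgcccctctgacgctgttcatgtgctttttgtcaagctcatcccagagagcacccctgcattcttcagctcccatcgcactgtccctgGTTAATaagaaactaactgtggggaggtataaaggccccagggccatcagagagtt
Prodh2: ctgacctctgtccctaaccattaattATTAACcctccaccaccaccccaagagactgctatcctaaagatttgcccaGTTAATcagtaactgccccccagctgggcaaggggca
Of the 43 enzymes, 35 had at least 1 RefSeq promoter, and 12 of these were among the 13 that fell on both scales. The letters GTTAAT stood on either strand in the 250 upstream bases of 4 of the 35 (*Bckdhb*, *Ftcd*, *Haao* and *Prodh2*), 3 of them among the 12 that fell, and in 6.43% of all 32851 promoters, or 7.49% of the 27025 genes when any promoter of a gene counts, as it does for the enzymes. The matches of *Bckdhb* and *Haao* lie before a RefSeq start but inside the gene as GENCODE annotates it. The TEAD motif GGAATG, the DNA motif of the factors that YAP1 works with, stood in 7 of the 35 (*Dao*, *Fah*, *Gcdh*, *Gldc*, *Oat*, *Prodh* and *Tdo2*), 3 of them among the 12, and in 12.6% of all promoters (14.4% of genes). The TEAD matches of *Dao*, *Fah*, *Prodh* and *Tdo2* likewise lie inside the gene as GENCODE annotates it. The C/EBP motif TTGCNNAA stood in 6 of the 35, against 9.56% of all promoters (10.8% of genes), and the glucocorticoid receptor motif AGAACA in 4, against 16.1% (18.2% of genes). The HNF4 motif CAAAGTCCA stood in *Agxt2* alone (0.384% of all promoters, 0.451% of genes), and neither the FOXA motif TGTTTAC (3.17% of promoters, 3.54% of genes) nor the cyclic AMP response element TGACGTCA (1.55% and 1.77%) stood in any of the 35. Motifs were read on both strands, 0 matches of different motifs overlapped in these 35, and a match is a run of letters and not a measured site.

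Tryptophan is broken down along the kynurenine pathway. 4 of its 6 enzymes fell on both scales, and *Acmsd*, at the branch that leads away from NAD synthesis, rose on both. *Tdo2*, the dioxygenase that opens the indole ring and limits the rate of the pathway, lay at 736, 603 and 812 TPM in WT males, 366, 352 and 492 in WT females, 379, 416 and 222 in KO males and 294, 289 and 457 in KO females. The WT males were therefore above all other libraries, and KO and WT females overlapped. Its genotype effect was -0.68 ± 0.21 (SE; limma adjusted p = 0.0155) on the deposited and -1.14 ± 0.25 (limma adjusted p = 0.00296) on the rescaled scale.

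*Afmid*, the formamidase of the next step, had the largest fall of the 42 enzymes on both scales. Its values were 58.8, 55.4 and 72.0 TPM in WT males, 82.8, 96.0 and 121 in WT females, 28.6, 25.4 and 33.9 in KO males and 33.0, 36.2 and 37.8 in KO females. Every KO value was below every WT value. The effect was -1.25 ± 0.13 (SE; limma adjusted p = 3.47e-06) deposited and -1.71 ± 0.11 (limma adjusted p = 1.26e-07) rescaled. *Afmid* shares 44.3% of its annotated exon bases with the overlapping gene model *Gm20708* on the same strand, which was listed at a mean of 1.00 TPM, so the split of reads between these is uncertain.

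*Kmo*, which hydroxylates kynurenine, ranged from 100.5 to 134 TPM in WT (median 116) and from 71.5 to 92.4 in KO (median 81.9), with no overlap, and fell by 0.51 on the deposited and 0.97 on the rescaled log2 scale. *Haao*, which opens the ring of 3-hydroxyanthranilate, ranged from 284 to 563 TPM in WT (median 431) and from 226 to 301 in KO (median 279), and fell by 0.65 deposited and 1.12 rescaled. Only WT male 2, at 284 TPM, lay within the KO range of *Haao*. *Kynu*, the hydrolase between these steps, was 32.4 to 65.6 TPM in WT and 51.1 to 63.6 in KO, and its effect was 0.34 ± 0.13 deposited (SE; limma adjusted p = 0.0396) and -0.11 ± 0.17 rescaled (limma adjusted p = 0.618). The deposited call of *Kynu* held in 5 of the 12 fits that left out 1 library.

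*Acmsd* removes the product of *Haao* by decarboxylation, in competition with the spontaneous closure to quinolinate from which NAD is made. Its values were 22.9, 18.1 and 9.04 TPM in WT males, 8.96, 6.07 and 8.97 in WT females, 47.6, 41.6 and 48.6 in KO males and 31.0, 58.1 and 56.8 in KO females. All KO values were above all WT values on this scale, and WT males 1 and 2 were the highest of the WT. On rescaled values WT spanned 6.40 to 28.0 and KO 24.2 to 51.8, with overlap. The effect was 1.96 ± 0.25 (SE; limma adjusted p = 2.17e-05) deposited and 1.52 ± 0.29 (limma adjusted p = 0.00100) rescaled. Of 5 other tested genes of tryptophan metabolism, 3 fell on both scales. They were *Ido2* and the kynurenine aminotransferases *Aadat* (-0.87 deposited, -1.33 rescaled) and *Kyat1* (-1.27 and -1.73), and *Ido1* was listed at 0 in all libraries.

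**Figure D2:**
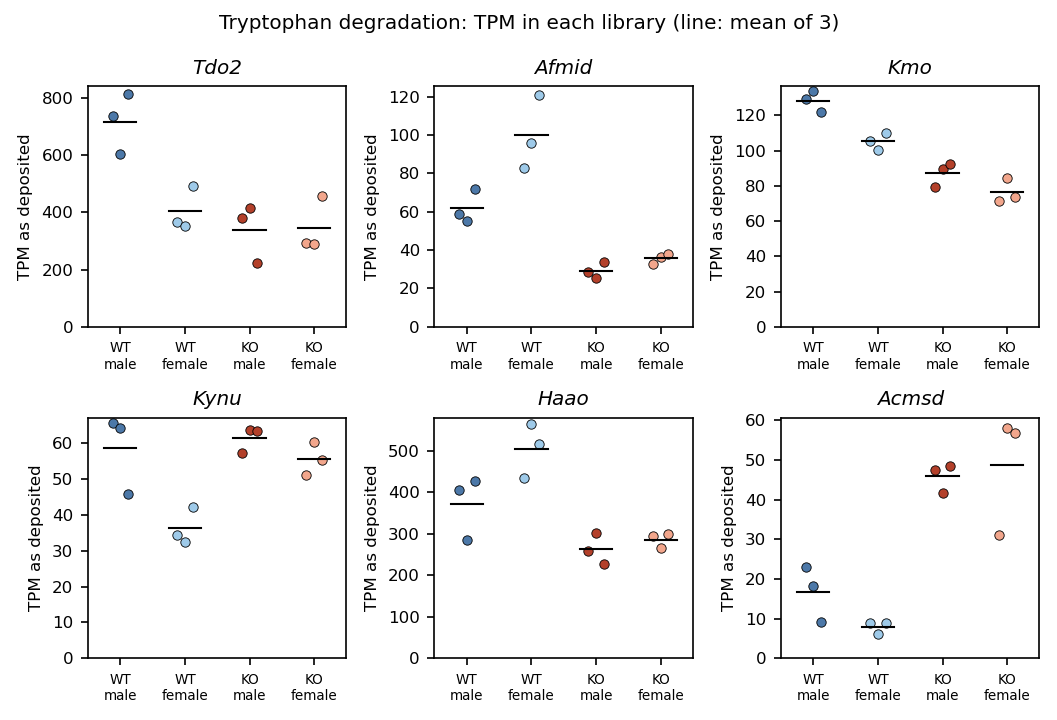
TPM as deposited of the 6 tryptophan enzymes in each library, 1 point per mouse, with a line at the mean of 3, for WT males, WT females, KO males and KO females. KO points of *Afmid* (25.4 to 37.8) and *Kmo* (71.5 to 92.4) lie below every WT point, and those of *Acmsd* (31.0 to 58.1) above every WT point.

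Tyrosine is degraded by the products of *Tat*, *Hpd*, *Hgd*, *Gstz1* and *Fah* in that order. 2 of the 5 fell on both scales and 1 more, *Fah*, on the rescaled scale, with a pathway median of -0.29 deposited and -0.75 rescaled. *Hpd*, the dioxygenase that makes homogentisate, was 1599, 1564 and 1851 TPM in WT males, 2745, 2801 and 3110 in WT females, 1245, 1474 and 1276 in KO males and 1224, 1556 and 1715 in KO females. WT females were the highest, and KO female 3 at 1715 was the only KO liver within the WT range. Its effect was -0.64 ± 0.14 (SE; limma adjusted p = 0.00170) deposited and -1.11 ± 0.14 (limma adjusted p = 4.66e-05) rescaled.

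*Gstz1*, the maleylacetoacetate isomerase, fell by 0.32 deposited and 0.78 rescaled, from 425 to 647 TPM in WT to the narrow range of 399 to 435 in KO. *Fah*, the hydrolase of the last step whose loss causes tyrosinaemia type I, had effects of -0.29 ± 0.13 deposited (SE; limma adjusted p = 0.0715) and -0.75 ± 0.13 rescaled (limma adjusted p = 5.08e-04). *Tat*, the aminotransferase of the first step, and *Hgd* in the middle passed on neither scale. *Tat* was 955 to 2227 TPM in WT and 980 to 1732 in KO, with overlapping ranges, and effects of 0.06 deposited and -0.41 rescaled. *Hgd* was 447 to 668 TPM in WT and 544 to 686 in KO, with effects of 0.20 deposited and -0.27 rescaled. Of 2 other genes of the pathway, *Qdpr*, which regenerates tetrahydrobiopterin, fell on both scales, from 330 to 572 TPM in WT to 253 to 376 in KO.

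Histidine is converted to glutamate by *Hal*, *Uroc1*, *Amdhd1* and *Ftcd*. The first and the last of the 4 fell on both scales, *Uroc1* fell on the rescaled scale only, and *Amdhd1* passed on neither. *Ftcd*, which passes the formimino group to tetrahydrofolate, was 344, 229 and 398 TPM in WT males, 280, 316 and 333 in WT females, 159, 129 and 160 in KO males and 186, 152 and 181 in KO females. All KO values were below all WT values, the nearest being 229 in WT male 2 and 186 in KO female 1. The effect was -0.96 ± 0.14 (SE; limma adjusted p = 6.02e-05) deposited and -1.42 ± 0.13 (limma adjusted p = 2.92e-06) rescaled.

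*Hal*, the histidase that releases ammonia from histidine, was 119 to 225 TPM in WT (median 151) and 76.8 to 126 in KO (median 95.5). It fell by 0.65 deposited and 1.11 rescaled, with overlap only between KO female 1 at 126 and the 2 lowest WT libraries at 119 and 122. *Amdhd1* lies 4033 bases from *Hal* on chromosome 10, tail to tail, with *Hal* on the plus and *Amdhd1* on the minus strand (GRCm38). It was 122 to 222 TPM in WT and 174 to 244 in KO, with effects of 0.26 ± 0.12 deposited (SE; limma adjusted p = 0.0794) and -0.20 ± 0.12 rescaled (limma adjusted p = 0.212). *Uroc1* was 204 to 273 TPM in WT and 181 to 279 in KO, with effects of -0.08 deposited and -0.54 rescaled.

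The methionine cycle held the most abundant enzyme of each genotype, *Gnmt* in WT and *Bhmt* in KO, and moved in both directions on the deposited scale: *Bhmt*, *Cbs* and *Cth* were higher and *Ahcy* was lower. On the rescaled scale *Ahcy* and *Gnmt* fell and none of the 6 rose. *Ahcy*, which splits S-adenosylhomocysteine into homocysteine and adenosine, was 1156, 1389 and 1256 TPM in WT males, 1549, 1510 and 1723 in WT females, 807, 907 and 848 in KO males and 642, 765 and 859 in KO females. Every KO value was below every WT value. Its effect was -0.83 ± 0.12 (SE; limma adjusted p = 9.43e-05) deposited and -1.29 ± 0.13 (limma adjusted p = 7.95e-06) rescaled.

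*Bhmt* returns homocysteine to methionine with a methyl group from betaine. It was 1864, 2873 and 1528 TPM in WT males, 1324, 1028 and 2230 in WT females, 3350, 3493 and 3435 in KO males and 2983, 3115 and 3320 in KO females. The 6 KO livers lay within a narrow band above all WT livers, whose values were spread widely. The effect was 0.94 ± 0.19 (SE; limma adjusted p = 0.00110) deposited and 0.47 ± 0.23 (limma adjusted p = 0.120) rescaled, so *Bhmt* took a larger share of the RNA in KO and its rescaled change did not pass.

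*Cth*, which makes cysteine from cystathionine, followed the same pattern, with 264 to 463 TPM in WT and 477 to 863 in KO and effects of 0.92 deposited (limma adjusted p = 5.80e-04) and 0.46 rescaled (limma adjusted p = 0.0923). *Cbs*, the enzyme before it, was 92.4 to 165 TPM in WT and 147 to 188 in KO, with effects of 0.37 and -0.10, and its deposited call held in 5 of the 12 fits that left out 1 library. *Mat1a*, which makes S-adenosylmethionine in adult liver, was 973 to 1884 TPM in WT and 1400 to 2412 in KO and passed on neither scale. *Gnmt*, which uses S-adenosylmethionine to methylate glycine, had effects of -0.24 deposited (limma adjusted p = 0.0863) and -0.71 rescaled (limma adjusted p = 0.00118). Of 5 other genes of this pathway, *Mat2a*, the form of the synthetase made mainly outside adult liver, rose on both scales, from 31.2 to 47.2 TPM in WT to 71.0 to 133 in KO.

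Cysteine is oxidized by *Cdo1* and then decarboxylated by *Csad* on the way to taurine, the amino acid to which mouse bile acids are conjugated. *Csad* was the other enzyme that rose on both scales. Its values were 39.4, 63.6 and 124 TPM in WT males, 29.1, 41.1 and 85.6 in WT females, 173, 254 and 146 in KO males and 183, 195 and 227 in KO females. All KO livers were above all WT livers, with WT male 3 the nearest. On rescaled values WT spanned 31.3 to 147 and KO 109 to 220, with overlap.

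The effect on *Csad* was 1.76 ± 0.29 (SE; limma adjusted p = 2.36e-04) deposited and 1.30 ± 0.32 (limma adjusted p = 0.00549) rescaled. *Csad* shares 7.26% of its exon bases with *Zfp740* on the opposite strand, a gene at a mean of 12.3 TPM, and whether strand was used in counting is not given in the sources used here. *Cdo1* was 1111 to 2256 TPM in WT and 965 to 1625 in KO. Its effects were -0.06 deposited (limma adjusted p = 0.762) and -0.53 rescaled (limma adjusted p = 0.0398), and the rescaled call held in 6 of the 12 fits that left out 1 library. Of 3 other tested genes, *Mpst*, which takes sulfur from mercaptopyruvate, fell on both scales (75.5 to 95.3 TPM in WT, 52.7 to 62.3 in KO).

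**Figure D3:**
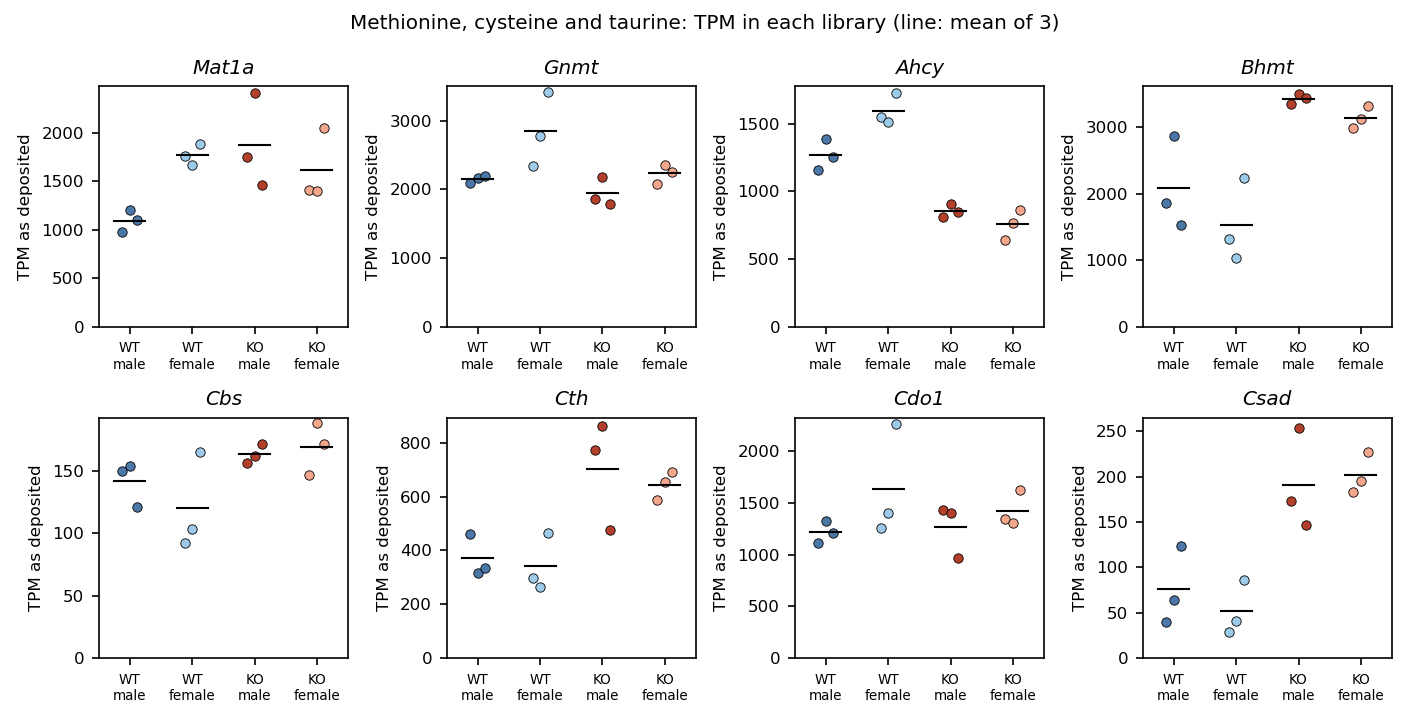
TPM as deposited of the 8 enzymes of methionine, cysteine and taurine metabolism in each library, 1 point per mouse, with a line at the mean of 3. KO points of *Ahcy* (642 to 907) lie below every WT point, and those of *Bhmt* (2983 to 3493), *Cth* (477 to 863) and *Csad* (146 to 254) above every WT point.

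Ornithine and proline are degraded through a common intermediate, pyrroline-5-carboxylate. 2 of the 4 enzymes fell on both scales and *Oat* on the rescaled scale only. *Prodh2*, the hydroxyproline dehydrogenase, was 165, 103 and 172 TPM in WT males, 241, 246 and 247 in WT females, 71.2, 93.8 and 70.7 in KO males and 95.3, 98.4 and 102 in KO females. The highest KO value, 102 in KO female 3, was just below the lowest WT value, 103 in WT male 2. The effect was -1.08 ± 0.14 (SE; limma adjusted p = 2.90e-05) deposited and -1.54 ± 0.13 (limma adjusted p = 9.56e-07) rescaled.

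*Prodh*, the proline dehydrogenase of the inner mitochondrial membrane, was 81.3 to 152 TPM in WT (median 127) and 52.5 to 102 in KO (median 69.3), and fell by 0.71 deposited and 1.17 rescaled. *Aldh4a1*, which oxidizes the shared intermediate to glutamate, had effects of 0.33 deposited (limma adjusted p = 0.0278) and -0.13 rescaled (limma adjusted p = 0.354). Its deposited call held in 7 of the 12 fits that left out 1 library, and it shares 32.5% of its exon bases with the gene model *Gm21969* on the same strand. *Oat*, which makes that intermediate from ornithine, was 581 to 1102 TPM in WT and 455 to 781 in KO, with effects of -0.36 deposited and -0.82 rescaled. Of 3 other tested genes, *Aldh18a1*, of proline synthesis, rose on both scales from low levels, from 0.255 to 0.749 TPM in WT to 1.06 to 3.63 in KO.

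None of the 5 enzymes of serine, threonine, alanine and aspartate was called in the same direction on both scales. *Sdsl*, a homologue of serine dehydratase, was 14.2, 12.9 and 10.4 TPM in WT males, 10.6, 10.6 and 8.30 in WT females, 20.6, 19.2 and 17.2 in KO males and 28.4, 17.5 and 21.6 in KO females. All KO values were higher than all WT values on the deposited scale. Its effect was 0.84 ± 0.15 (SE; limma adjusted p = 3.47e-04) deposited and 0.40 ± 0.17 (limma adjusted p = 0.0729) rescaled. *Sds*, serine dehydratase itself, lies 3715 bases away, head to head on chromosome 5 (GRCm38).

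*Sds* was 89.0 to 321 TPM in WT and 88.0 to 304 in KO with effects of -0.01 ± 0.30 deposited and -0.47 ± 0.31 rescaled (SE). It shares 21.3% of its exon bases with *Plbd2* on the opposite strand, at a mean of 54.4 TPM. *Got1*, the cytosolic aspartate aminotransferase, was 164 to 356 TPM in WT and 214 to 487 in KO, with effects of 0.66 deposited (limma adjusted p = 0.0282) and 0.20 rescaled (limma adjusted p = 0.576), the deposited call holding in 6 of the 12 fits that left out 1 library. The alanine aminotransferases *Gpt* (cytosolic) and *Gpt2* (mitochondrial) had deposited effects of 0.17 and -0.15, neither past the threshold, and fell by 0.29 and 0.62 on the rescaled scale. Of 5 other tested genes *Shmt1*, which moves carbon units from serine to folate in the cytosol, fell on both scales, from 74.6 to 164 TPM in WT to 60.4 to 74.7 in KO.

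Glyoxylate is turned into glycine by *Agxt* in peroxisomes and *Agxt2* in mitochondria, and glycine is split by the cleavage system of *Gldc*, *Amt* and *Gcsh*. No enzyme of this group was called on both scales. *Agxt2* was 65.7 to 98.4 TPM in WT and 109 to 130 in KO, with no overlap, and its effects were 0.54 ± 0.10 deposited (SE; limma adjusted p = 5.15e-04) and 0.08 ± 0.11 rescaled (limma adjusted p = 0.600). *Agxt*, whose loss causes primary hyperoxaluria, was 218 to 604 TPM in WT and 206 to 371 in KO, with effects of -0.26 deposited and -0.72 rescaled, the latter past the threshold. *Gcsh*, the lipoyl carrier, fell by 0.58 on the rescaled scale, and *Gldc* and *Amt* passed on neither. *Gldc* was 35.3 to 109 TPM in WT, where WT females 1 and 2 were at 35.3 and 36.2, and 70.2 to 107 in KO. Of 5 other genes 2 fell on both scales: *Hao1*, which makes glyoxylate from glycolate, from 101 to 286 TPM in WT to 60.6 to 80.3 in KO, and *Sardh*, which makes glycine from sarcosine, from 360 to 474 to 249 to 432.

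The branched-chain keto acid dehydrogenase is built from *Bckdha* and *Bckdhb* (E1) and *Dbt* (E2). *Dbt* was 42.8 to 65.4 TPM in WT (median 53.2) and 33.9 to 41.0 in KO (median 35.9), with no overlap, and fell by 0.56 deposited and 1.01 rescaled (limma adjusted p = 4.34e-04 and 6.81e-07). The E1 genes were called on the rescaled scale only, with *Bckdha* at -0.66 and *Bckdhb* at -0.31. *Bckdha* shares 61.7% of its exon bases with *B3gnt8* on the opposite strand, which was at a mean of 0.813 TPM. Of 16 other tested genes of branched-chain breakdown, 8 fell on both scales and 0 rose: *Ppm1k*, *Ivd*, *Mccc2*, *Acadsb*, *Hibadh*, *Aldh6a1*, *Pcca* and *Pccb*. *Acadsb*, an acyl-CoA dehydrogenase of isoleucine breakdown, went from 27.9 to 48.7 TPM in WT to 22.0 to 28.1 in KO, and *Hibadh*, of valine breakdown, from 236 to 383 to 206 to 249.

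Lysine is degraded by *Aass* and, further down, *Gcdh*. *Gcdh*, the glutaryl-CoA dehydrogenase that tryptophan breakdown also uses, was 350 to 430 TPM in WT (median 406) and 260 to 317 in KO (median 286), with no overlap. It fell by 0.47 deposited and 0.94 rescaled (limma adjusted p = 5.77e-04 and 4.79e-06). *Aass*, the bifunctional enzyme of the first steps, was 111 to 164 TPM in WT and 116 to 185 in KO and passed on neither scale. *Pipox*, of the pipecolate route, fell on both, from 164 to 284 TPM in WT to 140 to 165 in KO.

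Ratios of 2 enzymes within a library do not depend on the scale. The pairs were chosen after their values were seen, so their values are a description without a test. *Acmsd* over *Haao*, consecutive steps, was 0.0108 to 0.0638 in WT and 0.106 to 0.219 in KO. *Bhmt* over *Ahcy*, which use and make homocysteine, was 0.681 to 2.07 in WT and 3.85 to 4.64 in KO, and *Csad* over *Cdo1* was 0.0232 to 0.102 in WT and 0.121 to 0.181 in KO. The genotypes did not overlap for any of the 3.

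*Hal* over *Amdhd1*, the neighbours on chromosome 10, was 0.762 to 1.03 in WT and 0.420 to 0.572 in KO. *Prodh* over *Aldh4a1* was 0.346 to 0.586 in WT and 0.142 to 0.307 in KO, and *Dbt* over *Bckdhb* was 0.406 to 0.595 in WT and 0.269 to 0.338 in KO. These 3 were lower in every KO liver than in every WT liver. *Cth* over *Cbs* (2.05 to 3.24 in WT, 2.78 to 5.34 in KO), *Agxt2* over *Agxt* (0.143 to 0.371, 0.344 to 0.570) and *Sdsl* over *Sds* (0.0290 to 0.145, 0.0678 to 0.196) overlapped between the genotypes.

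**Figure D4:**
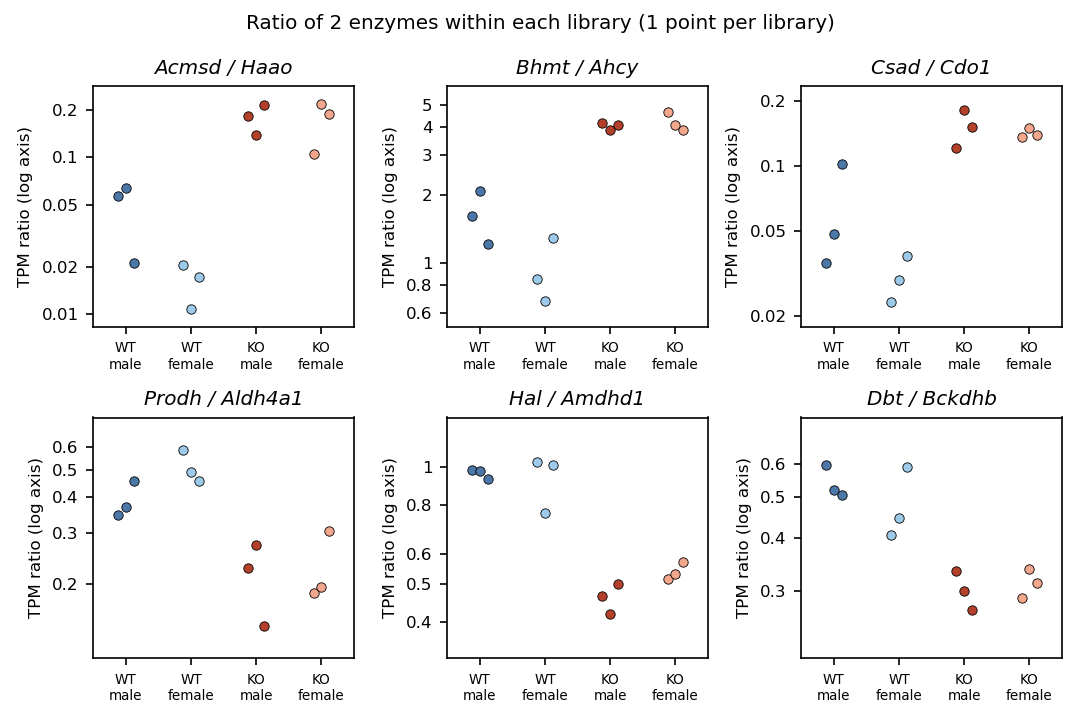
TPM ratio of 2 enzymes within each library on log axes, 1 point per mouse, for WT males, WT females, KO males and KO females. In the upper row every KO point lies above every WT point (*Bhmt* over *Ahcy*: 3.85 to 4.64 against 0.681 to 2.07), and in the lower row every KO point lies below every WT point (*Hal* over *Amdhd1*: 0.420 to 0.572 against 0.762 to 1.03).

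Over all 10 pathways, 53 further genes of amino acid metabolism were listed and 48 tested. On both scales 2 rose, *Mat2a* and *Aldh18a1* (20.9% of all tested genes did), and 17 fell (4.81%). Read on the deposited scale the counts were 7 and 17 (50.1% and 4.82% of all genes), and on the rescaled scale 2 and 31 (20.9% and 18.7%). Their median effect was -0.13 deposited and -0.58 rescaled, beside -0.07 and -0.53 for the 42 enzymes and 0.35 and -0.04 for all genes. Of 10 amino acid transporters 4 fell on both scales: *Slc38a3*, *Slc43a1*, *Slc1a2* and *Slc25a13*. *Slc1a2*, a glutamate carrier, went from 27.2 to 53.1 TPM in WT to 8.55 to 23.1 in KO, and *Slc38a3*, a glutamine carrier, from 403 to 1078 to 374 to 570.

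Within males, 10 enzymes were higher in KO on the deposited scale (43.3% of all tested genes were) and 10 were lower (2.81%). On the rescaled scale 0 were higher in limma's test (13.9% of all genes; 1 enzyme, *Acmsd*, at an unadjusted p below 0.05) and 20 were lower (10.2%). Within females the deposited counts were 7 higher (29.1%) and 12 lower (4.68%), and the rescaled counts 3 higher (*Acmsd*, *Sdsl* and *Csad*; 15.2%) and 21 lower (10.9%). *Acmsd* rose by 1.49 ± 0.31 in males and by 2.43 ± 0.31 in females on the deposited scale (SE). On the rescaled scale its effect was 0.94 ± 0.34 in males (limma adjusted p = 0.0661), which did not pass, and 2.09 ± 0.34 in females (limma adjusted p = 7.58e-04). *Tdo2* was at -1.12 ± 0.25 in males (limma adjusted p = 0.00355) and -0.24 ± 0.25 in females (limma adjusted p = 0.509) on the deposited scale, and at -1.70 ± 0.29 (limma adjusted p = 0.00103) and -0.59 ± 0.29 (limma adjusted p = 0.159) on the rescaled scale. *Mat1a* was at 0.76 ± 0.20 in males (limma adjusted p = 0.00901) and -0.15 ± 0.20 in females (limma adjusted p = 0.601), and on the rescaled scale at 0.18 and -0.50, neither past the threshold.

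The difference between the sexes in the genotype effect was tested as an interaction, and 0 enzymes passed on either scale in limma's test, beside 112 of all tested genes on the deposited scale (0.586% with a positive difference, male minus female, and 0.326% with a negative one) and 103 on the rescaled scale (0.448% and 0.391%). At an unadjusted p below 0.05 there were 8 enzymes on the deposited scale, 6 positive and 2 negative, where 8.85% of all genes were. On the rescaled scale there were 5, all negative, where 7.58% of all genes were. The smallest adjusted p among the enzymes was 0.298 for *Mat1a* deposited and 0.510 for *Kynu* rescaled, and for *Tdo2* it was 0.482 and 0.521 by limma. A genotype effect that differs between males and females was thus not detected for any enzyme with 3 mice in a group.

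In WT, 4 enzymes differed between the sexes on the deposited scale. *Kynu* was higher in males (1.14% of all tested genes were), at 65.6, 64.4 and 45.8 TPM in males and 34.6, 32.4 and 42.3 in females. *Hpd*, *Afmid* and *Prodh2* were higher in females (4.6% of all genes were), by 0.79, 0.67 and 0.77 on the log2 scale. On the rescaled scale only *Kynu* was called (0.89 ± 0.19, SE; limma adjusted p = 0.0215; 2.11% of all genes were higher in males and 2.27% lower). With a term for the 2 mice with early animal numbers (KO female 1 and WT female 3), only *Hpd* of the 4 still passed on the deposited scale (-0.83), and *Kynu* was at 0.69, *Afmid* at -0.62 and *Prodh2* at -0.78. Without WT male 3 the deposited counts became 3 higher and 9 lower in males, and all 4 calls except that of *Hpd* were lost in at least 1 of the 12 fits that left out a library, with values of 0.57 to 0.83 for *Kynu*, -0.79 to -0.52 for *Afmid* and -0.90 to -0.54 for *Prodh2*.

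In KO, 0 enzymes differed between the sexes in limma's test on either scale, beside 10 of all tested genes on each (deposited 0.057% higher and 0.0244% lower in males, rescaled 0.0652% and 0.0163%), and 1 enzyme, *Hal*, did so at an unadjusted p below 0.05 on each scale, where 5.33% of all genes did deposited and 5.57% rescaled. The median absolute sex difference of the 42 enzymes was 0.38 in WT and 0.14 in KO on the deposited scale and 0.27 and 0.14 on the rescaled scale. Over all tested genes it was 0.27 and 0.16 deposited, and 0.24 and 0.15 rescaled. The male minus female difference of *Acmsd* was 0.90 in WT and -0.03 in KO deposited, and 1.12 and -0.03 rescaled. That of *Hpd* was -0.79 in WT and -0.16 in KO deposited, and -0.56 and -0.16 rescaled.

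**Figure D5:**
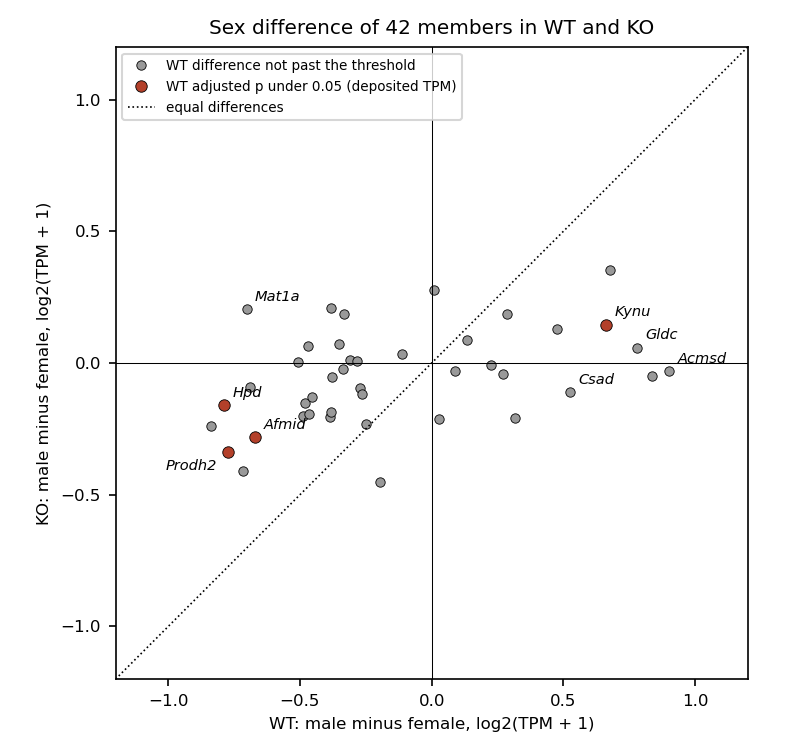
Male minus female difference in log2(TPM + 1) of the 42 enzymes in WT (horizontal) and in KO (vertical) on deposited values, 1 point per gene, with the dotted line marking equal differences. Red points passed limma's threshold in WT (*Kynu*, *Hpd*, *Afmid* and *Prodh2*), none passed in KO, and the points spread more widely along the WT axis than along the KO axis (*Acmsd*: 0.90 in WT and -0.03 in KO).

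Markers of cell types were read from fixed lists beside these results. Of 9 hepatocyte markers, which include *Alb*, *Apoa1* and *Hnf4a*, 1 rose on both scales (*Trf*) and 2 fell (*Ttr* and *Apoa2*). Their summed level was 106111 to 149394 TPM in WT and 111946 to 143823 in KO as deposited. On the deposited scale 4 of the 9 rose (*Trf*, *Fgb*, *Ahsg* and *Hnf4a*) and 2 fell, with a median effect of 0.02. On the rescaled scale only *Trf* rose and 4 fell (*Alb* by 0.74, *Apoh* by 0.73, *Ttr* and *Apoa2*), their median effect was -0.44, beside -0.53 for the 42 enzymes, and their summed level was 130467 to 157404 in WT and 96865 to 123797 in KO, with no overlap. *Trf* went from a mean of 10119 to 29804 TPM. All 5 macrophage markers rose on both scales, with a summed level of 59.2 to 189 TPM in WT and 266 to 539 in KO. Of 6 stellate cell and fibroblast markers 3 rose on both (*Pdgfrb*, *Pdgfra* and *Col1a1*; sum 49.8 to 146 and 112 to 279), while *Lrat*, of stellate cells, was at -0.54 deposited, which did not pass, and fell by 0.91 on the rescaled scale.

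Of 5 tested biliary markers 3 rose on both scales (*Sox9*, *Spp1* and *Cldn7*) and *Epcam* fell. The summed level with the untested *Krt7* was 28.0 to 59.0 TPM in WT and 260 to 725 in KO, of which *Spp1* alone was 21.9 to 52.5 and 232 to 702. *Krt19*, a defining keratin of bile ducts, was 0.738 to 2.26 TPM in WT and 0.0552 to 2.17 in KO and passed on neither scale. Of 5 endothelial markers *Kdr* fell on both scales (sum 36.8 to 57.9 and 21.1 to 85.0), of 3 tested lymphocyte markers 0 passed (sum of all 5 listed 1.53 to 4.97 and 1.33 to 5.14), and of 4 neutrophil markers *Csf3r* rose on both (sum 0.218 to 20.2 and 12.1 to 45.6). No marker was at 0 in all 12 libraries. The part that these markers, in either direction, have in the results for the enzymes was not tested.

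The authors' deposited table compares KO with WT for 17332 genes. Which libraries and covariates that comparison used is not given in the sources used here. Among the 42 enzymes, the authors' deposited table lists an FDR below 0.05 with a higher level in KO for 2, *Acmsd* and *Csad* (14.9% of its genes), and with a lower level for 15 (9.27%). These 15 are the 13 that fell on both scales above together with *Tat* and *Oat*. For *Tat* the authors' deposited table gives a log2 fold change of -0.87 with an FDR of 0.01, where the effects computed here were 0.06 deposited and -0.41 rescaled, neither past the threshold. For *Acmsd* the authors' deposited table gives 0.99, and for *Afmid* -1.59.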

How the data were processed

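Per the file headers, the authors deposited 1 table with a TPM column for each of the 12 livers and their own comparison of KO with WT (log2 fold changes with FDR p-values that carry 2 decimals). The submitters' processing notes name the build GRCm38 and edgeR. The aligner, the counter and the use of strand are not given in the sources used here. TPM columns have a fixed sum, as deposited.

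Values were analysed as log2(TPM + 1) for the 12278 genes whose TPM averaged 0.5 or more, with limma 3.58.1 in R 4.3.3 (intensity trend, two-sided, Benjamini-Hochberg adjustment over all tested genes, threshold 0.05). Fold changes on this scale understate changes of low genes. The genotype effect used all 12 libraries with sex as a covariate, and the other contrasts used 1 model of the 4 group means. The fit was also run on simulated data without a shift between genotypes over most genes. That run does not bear on the choice of scale. Rescaled values are TPM divided by a median-of-ratios factor over genes above 0 in every library. The labels name separate mice, replicates were numbered in order of deposition, and p-values cover the spread between mice.

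Positions and exon overlaps came from GENCODE mouse release 21 (GRCm38), matched by identifier for 25635 of 25676 genes and for all 43 enzymes, and promoters from RefSeq (GRCm38.p6). All 43 enzymes are named. Of other pathway genes and transporters, up to 2 per list are described, those past the threshold on both scales with the largest rescaled change, and others that passed are named only. Some genes of these lists and 1 upstream sequence are not reported here and were left out of the list counts. The enzymes and all lists were chosen with earlier results of these data known. Tried alternatives were rescaling, leaving out the 20 most abundant genes, a pseudocount of 0.1, no filter, a term for the 2 mice with early animal numbers (KO female 1 and WT female 3), and leaving out each library.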

Additional observations from a re-analysis of the deposited data

How the results depend on the processing

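After median-of-ratios rescaling the enzymes called over both sexes went from 10 higher and 13 lower to 2 and 24, in males from 10 and 10 to 0 and 20 (all genes 2959, from 5663), and in females from 7 and 12 to 3 and 21. Leaving out the 20 most abundant genes and scaling again gave 6 higher and 16 lower over both sexes (all genes 5996, from 6745), with *Fah*, *Oat* and *Gnmt* added to the 13 that fell, and 6 higher and 10 lower in males (all genes 4838, from 5663). Effects over both sexes that changed sign on rescaling were those of *Tat* (-0.41), *Hgd* (-0.27), *Kynu* (-0.11), *Amdhd1* (-0.20), *Gpt* (-0.29), *Aldh4a1* (-0.13), *Gldc* (-0.060), *Amt* (-0.17), *Mat1a* (-0.16), *Cbs* (-0.10), *Bckdhb* (-0.31) and *Aass* (-0.22), and the medians of serine, threonine, alanine and aspartate (-0.29), glycine and glyoxylate (-0.17) and methionine and transsulfuration (-0.13). *Tat* was at -0.021 without the 20 most abundant genes. In males 15 of the 42 effects changed sign, of which 3 had passed on the deposited scale, *Aldh4a1* (-0.086), *Agxt2* (-0.15) and *Bckdhb* (-0.15), and in females 6 did, of which 0 had passed. Rescaling shifted the effects of the 42 enzymes by -0.47 to -0.44 over both sexes, by -0.58 to -0.54 in males and by -0.35 to -0.33 in females.

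Without 1 library at a time, 6 to 12 enzymes were higher and 13 to 15 lower over both sexes (all genes 6277 to 6880), 5 to 9 and 7 to 10 in males (4450 to 5659), 5 to 10 and 11 to 14 in females (3081 to 4564), and 0 in the interaction (all genes 75 to 176). The lowest count of 6 came without KO female 2 and the highest of 12 without WT female 3, the lowest of 5 in males without KO male 2 and the lowest of 5 in females without WT female 2. On rescaled values 2 to 4 were higher and 22 to 24 lower. This second set of fits was added after seeing the data. The deposited call of *Kynu* (0.28 to 0.41) was lost without WT male 3, WT female 1 or 2, KO male 2 or any KO female, that of *Cbs* (0.28 to 0.46) without WT male 3, WT female 1 or 2, KO male 2 or 3 or KO female 2 or 3, that of *Got1* (0.56 to 0.84) without WT male 2 or 3, WT female 2, KO male 1 or KO female 2 or 3, and that of *Aldh4a1* (0.25 to 0.39) without WT male 1 or 2, WT female 1, KO male 3 or KO female 2. The rescaled call of *Gpt* (-0.32 to -0.24) was lost without WT female 3 or KO female 1, and that of *Cdo1* (-0.60 to -0.40) without WT male 2 or 3, WT female 3, KO male 3 or KO female 1 or 2. Uncalled effects that changed sign were those of *Tat* (-0.051 to 0.15), *Sds* (-0.21 to 0.19) and *Cdo1* (-0.12 to 0.065) deposited and *Gldc* (-0.22 to 0.10) rescaled.

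In the sex difference in WT the counts of 1 enzyme higher and 3 lower in males became 0 and 1 with a term for the 2 mice with early animal numbers (all genes 409, from 705). They were 0 lower on rescaling and 5 lower without the 20 most abundant genes. Without 1 library they were 0 to 3 higher and 1 to 9 lower, with 291 (without WT male 2) to 1698 (without WT male 3) of all genes. The same term let *Amdhd1* pass over both sexes and ended the calls of *Got1* and *Bckdhb* in males. The sex difference in KO kept 0 enzymes and 6 to 10 of all genes. A pseudocount of 0.1 changed no call of an enzyme, and testing without the filter on low values ended the calls of *Cbs* over both sexes, of *Got1*, *Bhmt* and *Bckdhb* in males and of *Afmid* between the sexes in WT. No paired analysis was possible because the labels give no replicate numbers that the groups share. Limits: TPM do not show whether RNA per liver changed, 3 mice per group limit every comparison between or within the sexes, and read depth is known only roughly.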
